A study of Mus musculus with 4 samples.

Results

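A set of 8 secretory genes of the intestinal goblet cell, Muc2, Agr2, Clca1, Fcgbp, Zg16, Tff3, Spink4 and Spdef, were followed across the singlet classes and the multiplets of the mouse small intestine. They were chosen by name for their known roles in mucus, 8 of 15610 genes in the singlet table and of 15615 in the multiplet table, and all 8 were measured in both. The study profiled small intestinal epithelium and whole lung of C57BL/6J mice by droplet RNA sequencing, with 1 library of single cells (singlets) and 1 of attached cells (multiplets) per tissue. Both intestinal libraries came from dissociated tissue of this strain, with no treatment given, and the labels state no age, sex or number of animals and do not say whether animals were pooled. Each group was therefore 1 library, without replicates, and the differences below are descriptions of these libraries and carry no test or p-value.

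Goblet cells make the mucus that covers the gut surface. Muc2 is the gel-forming mucin, which is assembled into polymers in the endoplasmic reticulum and Golgi, packed into granules and released, after which other secreted proteins shape and cross-link the gel. Goblet, Paneth and enteroendocrine cells arise from a common secretory progenitor under the transcription factor Atoh1, and Spdef drives the maturation of goblet and Paneth cells.

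The 8 genes lie on 5 chromosomes of the mm10 build. In the GENCODE annotation of that build (GRCm38), Muc2 spans chr7:141690340-141754693 (plus strand), Fcgbp chr7:28071236-28120862 (plus strand) and Zg16 chr7:127050156-127087328 (minus strand). Tff3 (chr17:31125306-31129646, minus strand) and Spdef (chr17:27714352-27728955, minus strand) share a chromosome, while Agr2 is at chr12:35992907-36004087 (plus strand). Clca1 lies at chr3:145003817-145032776 (minus strand) and Spink4 at chr4:40920052-40931395 (plus strand). Because the counts were made from transcript 3′ ends, a value refers to the whole gene, and it does not grow with transcript length.

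Since these genes shared their highest class, the 250 bases before the start site are shown for 4 of them, from RefSeq (GRCm38.p6), each in its gene's own direction, 5′ to 3′. Clca1, Tff3, Zg16 and Spink4 are named only. For Agr2 and Spdef the RefSeq start lies inside the GENCODE span given above, and distances are counted from the RefSeq start. Capitals mark matches, on either strand, to TATAA (the TATA box), GATAA (GATA type), CAGCTG (an E-box, the kind of motif that Atoh1-like factors bind) and TTTATG (CDX type).
Muc2, chr7:141690090-141690339, plus strand: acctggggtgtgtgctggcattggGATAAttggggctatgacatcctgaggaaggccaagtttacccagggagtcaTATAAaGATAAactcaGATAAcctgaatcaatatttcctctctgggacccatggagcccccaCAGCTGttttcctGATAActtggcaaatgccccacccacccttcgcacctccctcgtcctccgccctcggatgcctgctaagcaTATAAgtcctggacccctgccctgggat
Agr2, chr12:35992675-35992924, plus strand: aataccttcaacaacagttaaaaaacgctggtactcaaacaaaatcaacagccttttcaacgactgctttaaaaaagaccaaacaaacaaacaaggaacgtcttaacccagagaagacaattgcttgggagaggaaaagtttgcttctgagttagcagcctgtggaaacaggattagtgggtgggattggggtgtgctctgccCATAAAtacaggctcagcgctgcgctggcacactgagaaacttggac
Fcgbp, chr7:28070986-28071235, plus strand: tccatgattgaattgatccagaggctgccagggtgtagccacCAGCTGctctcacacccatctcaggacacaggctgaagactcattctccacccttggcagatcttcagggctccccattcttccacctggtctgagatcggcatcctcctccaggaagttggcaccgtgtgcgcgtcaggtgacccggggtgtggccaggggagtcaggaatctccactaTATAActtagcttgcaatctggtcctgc
Spdef, chr17:27728952-27729201, minus strand: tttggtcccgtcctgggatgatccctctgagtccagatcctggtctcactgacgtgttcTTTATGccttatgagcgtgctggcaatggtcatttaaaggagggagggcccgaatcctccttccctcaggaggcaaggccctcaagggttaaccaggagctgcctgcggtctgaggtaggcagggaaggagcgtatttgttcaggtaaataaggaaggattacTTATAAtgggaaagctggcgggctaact
The letters TATAA stood 24 to 28 bases before the start in Muc2 and Fcgbp and, on the minus strand, in Spdef, where an overlapping match on the plus strand covered bases 23 to 27. Muc2 had a further match 170 to 174 bases before the start. Anywhere in the window and on either strand, TATAA occurred in 22.8% of the 32851 promoter windows of this length. The share of windows with a match at the distance above was not counted. Muc2 had 4 matches to GATAA (22.6% of windows hold 1 or more), the nearest 95 to 99 bases before the start. CAGCTG was found in Muc2 and Fcgbp (13% of windows) and TTTATG in Agr2 and Spdef (10.8%). TGTTTA, a forkhead motif, and CCGGAT, an ETS motif of the Spdef type, are held by 12.0% and 4.94% of windows, and neither was in these 4. A match is a description of the letters and not evidence of binding.

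Levels are given as CPM, the UMIs (molecules counted) of a gene per 1000000 UMIs of the class or library. The singlets held 5279 barcodes in the 10 classes named by the authors (median 8759 UMIs), and the multiplets 3671 barcodes (median 12603 UMIs), with 4 barcode sequences in common. Goblet singlets numbered 985, Paneth 88, enteroendocrine 175 and tuft 112. Markers set apart from the 8 genes matched these names. The 10 goblet markers, such as Ern2 and Rep15, summed to 3095 CPM in the goblet class and to between 39.9 and 471 CPM elsewhere. The 8 Paneth markers, lysozyme and alpha-defensins among them, took 52.6% of all UMIs in the Paneth class and 0.794% in the goblet class. The immune markers found in both tables (3 of 4) summed to 1.67 CPM over all singlets and the stromal one (1 of 4) to 1.26 CPM. By class, the immune markers were at 80.7 CPM in tuft cells and at 1.95 CPM or less in every other class. The classes were assigned to these same cells, so a difference between classes is a description. Intervals at 95% (exact Poisson for levels, Clopper-Pearson for shares, conditional binomial for ratios) cover counting error only.

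All 8 genes had their highest level in goblet cells, where together they made up 13.1% of the UMIs. Of the 5088 genes with 50 CPM or more in at least 1 class, 8.41% were highest there. Levels ran from 40486 CPM for Zg16 to 242 CPM for Spdef. In every other class each gene was lower, and the smallest gap was that of Spink4 in Paneth cells, 1.48-fold. The plot of levels by class sets all values side by side.

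**Figure D1:**
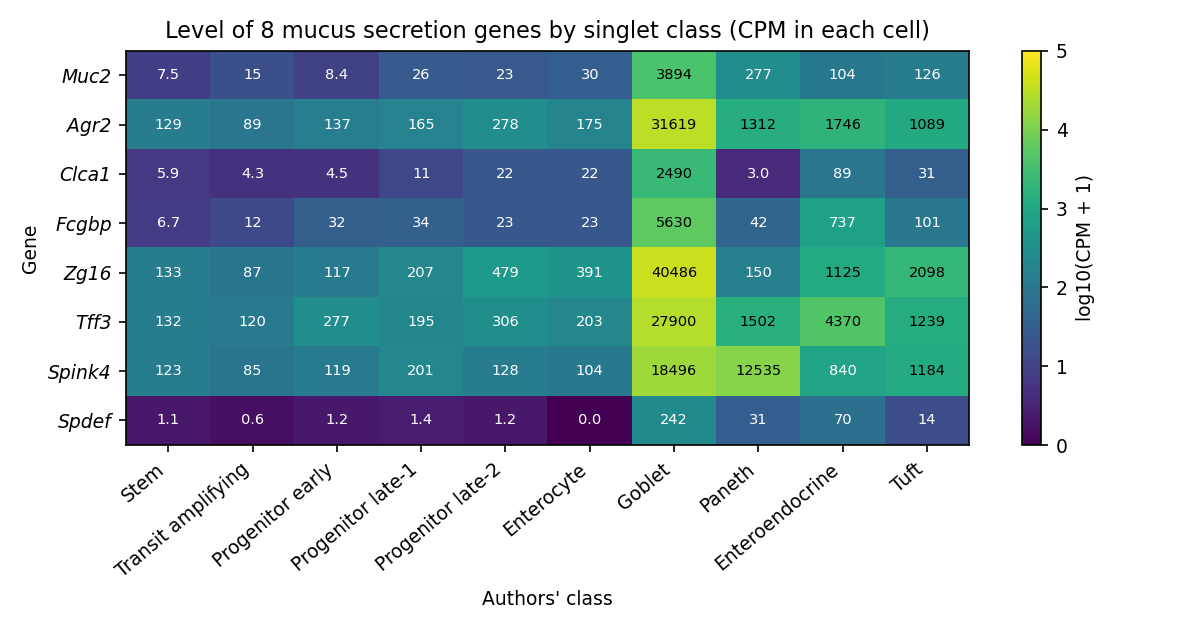
Level of each gene (vertical axis) in each of the 10 singlet classes (horizontal axis), printed in CPM and coloured by log10(CPM + 1). The goblet column holds the highest value in all 8 rows, and in the Paneth column only Spink4 (12535 CPM) comes near it.

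Muc2 and its helper in the endoplasmic reticulum came first by role. Muc2 was at 3894 CPM (interval 3854 to 3934) in goblet cells, 277 in Paneth cells, 126 in tuft and 104 in enteroendocrine cells. It lay between 7.53 and 29.9 CPM in the 6 stem, progenitor and enterocyte classes. Its order thus put Paneth cells directly after goblet cells, and the tuft and enteroendocrine intervals overlapped. Agr2, a disulfide isomerase needed for Muc2 assembly, reached 31619 CPM in goblet cells, 1746 in enteroendocrine, 1312 in Paneth and 1089 in tuft cells, and 88.8 to 278 CPM in the others. For Agr2 the 4 highest classes did not overlap in their intervals. The median barcode, however, had 838 CPM in Paneth, 259 CPM in enteroendocrine and 0 CPM in tuft cells. The order of Paneth and enteroendocrine cells thus turned with the measure.

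The 3 secreted proteins of the mucus gel had lower Paneth to goblet ratios of CPM (0.00122 for Clca1, 0.00370 for Zg16 and 0.00746 for Fcgbp) than Muc2 (0.0712). Clca1, a protease that processes Muc2, was at 2490 CPM in goblet cells and 89.4 in enteroendocrine cells. By value Clca1 was lowest of the 10 classes in Paneth cells, at 3.03 CPM (1.22 to 6.25), which was 7 UMIs in the whole class. This interval overlapped those of transit amplifying (4.34 CPM), early progenitor (4.51 CPM) and stem cells (5.86 CPM). With the 8 Paneth markers left out of the total, the Paneth level was 6.40 CPM, so its rank among these classes was not resolved. Fcgbp, a large gel protein that binds Muc2, stood at 5630 CPM in goblet, 737 in enteroendocrine and 101 in tuft cells. In Paneth cells it was at 42.0 CPM, a level whose interval overlapped that of late-1 progenitors (33.9 CPM). The richest barcode held 41 of the 97 Paneth UMIs of Fcgbp and 111 of the 225 late-1 ones. Zg16, a lectin that binds bacterial cell walls, was at 40486 CPM in goblet cells, 2098 in tuft and 1125 in enteroendocrine cells. The richest barcode held 1389 of the 1481 tuft UMIs and 778 of the 1195 enteroendocrine UMIs of Zg16. The Paneth level of Zg16, 150 CPM, overlapped that of stem cells (133 CPM). However, the richest Paneth barcode held 215 of the 346 UMIs, and the median barcode had 53.6 CPM in Paneth and 117 CPM in stem cells.

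The 2 small secreted peptides and the regulator reached further. Tff3, a trefoil peptide of mucosal repair, was at 27900 CPM in goblet cells, 4370 in enteroendocrine, 1502 in Paneth and 1239 in tuft cells. By the median barcode Paneth cells (1171 CPM) instead passed enteroendocrine cells (691 CPM). Early progenitors had 277 CPM of Tff3 against 120 in transit amplifying cells. Spink4, a Kazal-type protease inhibitor homologue, was at 18496 CPM in goblet and 12535 CPM in Paneth cells. Next came tuft cells with 1184 and enteroendocrine cells with 840 CPM, and no other class passed 201 CPM of Spink4. Spdef was at 242 CPM in goblet, 69.6 in enteroendocrine, 30.8 in Paneth and 14.2 in tuft cells and at 1.36 CPM or less elsewhere. The median barcode had 27.3 CPM of Spdef in Paneth and 0 CPM in enteroendocrine cells, the reverse of their class levels. Enterocytes had 0 UMIs of Spdef, which allows up to 1.5 CPM (3 counts).

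Over single barcodes, the same genes differed widely in how evenly goblet cells carried them. Agr2 had quartiles at 22290 and 40923 CPM and Tff3 at 20035 and 36742 CPM. For Zg16 the quartiles lay at 245 and 59826 CPM, around a median of 10847, and the highest goblet barcode held 350240 CPM. Clca1 spanned 152 to 3889 CPM between its quartiles. Agr2 and Tff3 were thus the genes most evenly carried by goblet cells among these 4, and Zg16 and Clca1 were strongly graded.

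**Figure D2:**
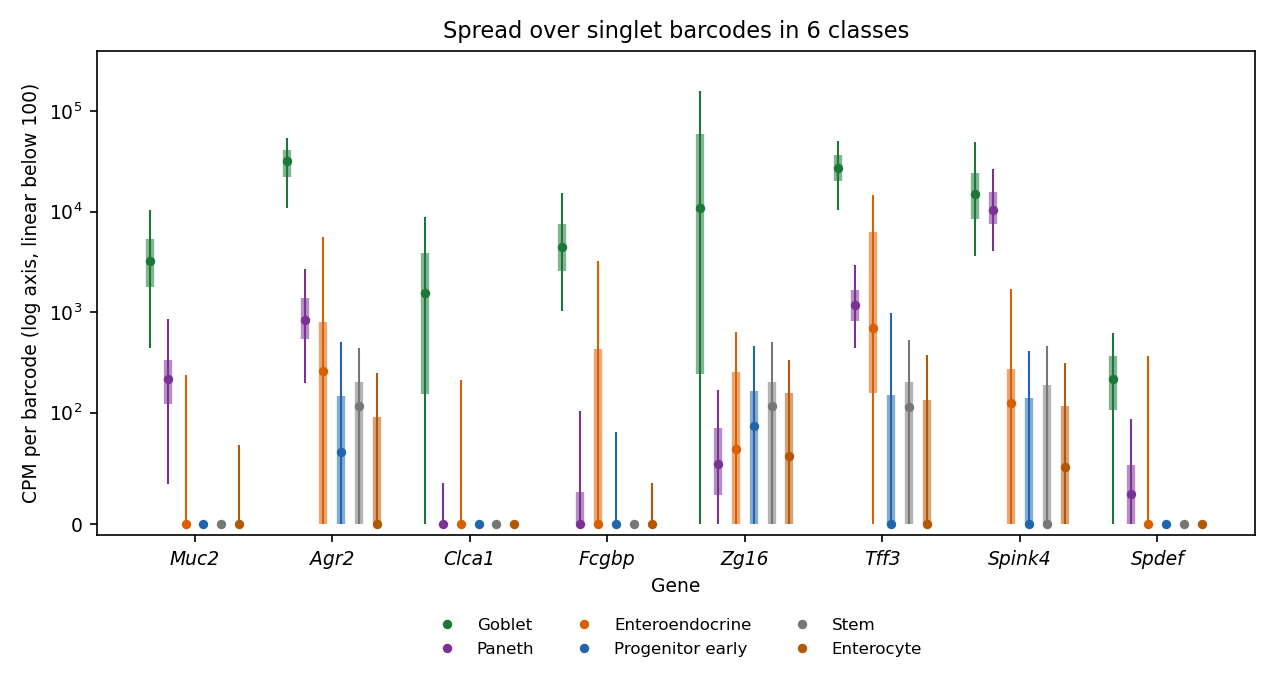
CPM per singlet barcode (vertical axis, logarithmic above 100 and linear below) for each gene in 6 classes; dots are medians, thick bars the quartiles and thin lines the 5th to 95th percentiles over barcodes. Goblet Zg16 runs from 0 to 160312 CPM between these percentiles, and the Paneth line of Spink4 (4030 to 26364 CPM) lies within the goblet one (3616 to 49580 CPM).

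Paneth cells shared part of the set and not the rest. By CPM, 7 of the 8 genes were over 1.5-fold lower in Paneth than in goblet cells, but so were 97.5% of the 2667 genes counted in this comparison (1.8% were higher), and the 8 Paneth markers alone took 52.6% of the Paneth UMIs. Spink4 was the exception, with a Paneth to goblet ratio of 0.678 (0.669 to 0.686). When the 8 Paneth markers were left out of both totals, a choice made after seeing the data, this ratio was 1.42 (1.40 to 1.44). Per barcode and unscaled it was 1.91, with a median of 285 Spink4 UMIs in a Paneth barcode against 135 in a goblet barcode, at median depths of 25595 and 8905 UMIs. The direction of the Spink4 difference hence turned with the scaling. For the other 7 it did not: without the Paneth markers in the totals, the ratio was 0.266 for Spdef, 0.149 for Muc2, 0.113 for Tff3, 0.0869 for Agr2, 0.0156 for Fcgbp, 0.00775 for Zg16 and 0.00255 for Clca1.

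The share of barcodes with a UMI, after every barcode had been thinned to 1500 UMIs, was compared between Paneth cells and classes with low levels of these genes. Stem, transit amplifying, progenitor and enterocyte singlets (median depths of 6199 to 11039 UMIs before thinning) served as that reference, and no measure of free RNA from empty droplets was used. Muc2 was seen in 22 of 88 Paneth barcodes (25%, 16.4 to 35.4%), against 0.286 to 2.09% in those classes. Agr2 was seen in 71.6% against 6.81 to 18.2%, Tff3 in 81.8% against 13.5 to 20.2% and Spink4 in 98.9% against 10.8 to 17.2%. Zg16 at 14.8% lay inside the reference range of 12.6 to 18.2%, so no difference was detectable at this depth. The 8 Paneth markers took 52.6% of Paneth UMIs, so fewer of the 1500 were left for other genes there. This lowers every Paneth share against the reference. Clca1 was found in 0 of 88 Paneth barcodes, which allows a share of up to 3.41% (3 counts) at this depth, and in 65.6% of goblet barcodes. Unthinned, 7.95% of Paneth barcodes had a Clca1 UMI. Fcgbp (4.55%) had an interval up to 11.2% whose lower end reached into the reference range of 0.524 to 1.97%. Spdef was in 2.27% of thinned Paneth barcodes, against 0 to 0.341%, with overlapping intervals. Unthinned, 53.4% of Paneth barcodes and 82.5% of goblet barcodes had a Spdef UMI.

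The make-up of the 8 genes' UMIs put the same contrast in 1 measure per class. Spink4 supplied 79.1% of them in Paneth cells and 14.1% in goblet cells. Zg16 supplied 31.0% in goblet and 0.946% in Paneth cells, and Clca1 1.90% and 0.0191%. Muc2 supplied 2.98% in goblet and 1.75% in Paneth cells. The shares of Spdef, 0.185% and 0.194%, had overlapping intervals.

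**Figure D3:**
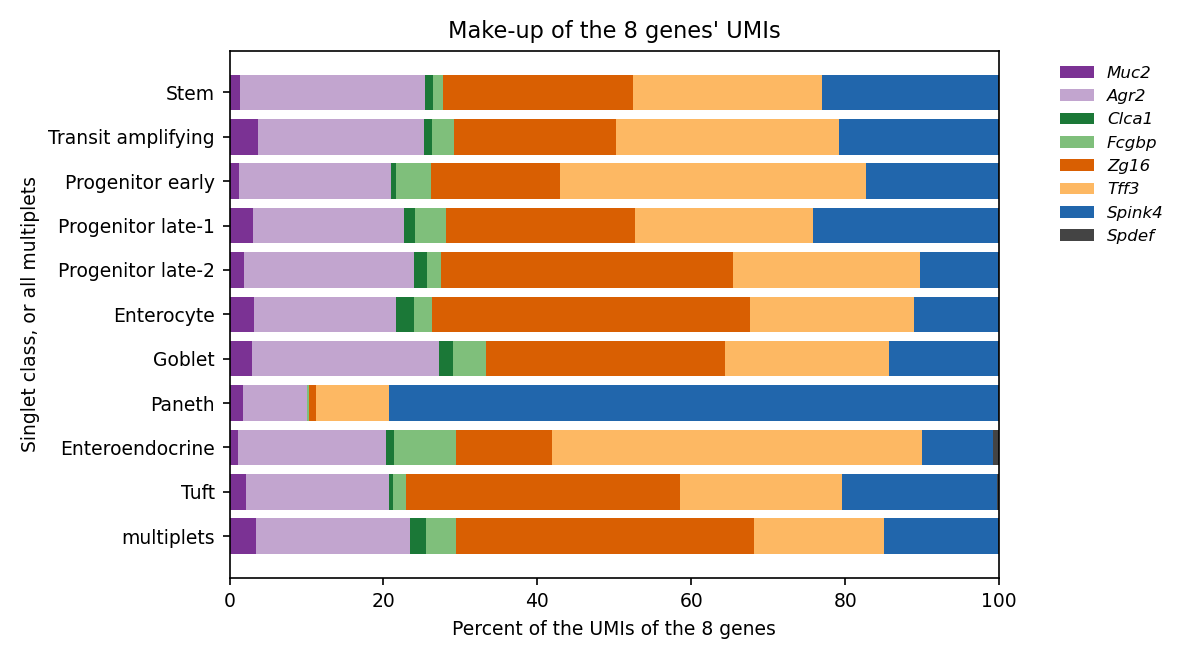
Share of each gene (horizontal axis, percent) in the summed UMIs of the 8 genes, for the 10 singlet classes and all multiplets (vertical axis). The Paneth bar is 79.1% Spink4, and Tff3 is the widest part of the enteroendocrine bar (48.1%) and of the early progenitor bar (39.8%).

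Some goblet singlets carried Paneth transcripts, and Spink4 followed them. Of the 933 goblet barcodes with at least 5000 UMIs, thinned to that depth, 68 (7.29%) had 100 or more UMIs of the Paneth markers, 228 had 10 to 99 and 637 had fewer than 10. Median Spink4 was 263, 106.5 and 60 UMIs in these 3 ranges. Clca1 went the other way, with medians of 0, 2.5 and 11 UMIs, as did Zg16 with 1, 20.5 and 80 UMIs and Agr2 with 94.5, 140 and 175 UMIs. Muc2 (12, 16 and 16 UMIs) and Tff3 (125.5, 138.5 and 140 UMIs) moved little. The ranges are cuts through a continuum, with 76 barcodes between 50 and 200 Paneth marker UMIs. Scrublet, a doublet caller, marked 1 of the 68 barcodes, 7 of the 228 and 31 of the 637. Whether the Paneth transcripts came from the same cell, a second cell or free RNA was not tested.

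In enteroendocrine and tuft singlets, few barcodes carried most of the mucus transcripts. Of 175 enteroendocrine barcodes, 38 had 10000 CPM or more of the 8 genes and held 81.0% of the class's UMIs of them. Those 38 averaged 12097 CPM of Tff3 and 5431 CPM of Agr2, and the other 137 had 1530 and 391 CPM. The 8 enteroendocrine markers were at 12594 CPM in the 38 and 53246 CPM in the 137, and the goblet markers at 966 and 290 CPM. Scrublet marked 3 of the 38 as doublets. Tff3 was the largest part of the mucus UMIs of this class (48.1%, against 21.3% in goblet cells), and Fcgbp had 8.11% against 4.31%. In tuft cells, 4 of 112 barcodes held 89.2% of the mucus UMIs, 3 of them marked as doublets, and the summed level without those 4 was 684 CPM in place of 5883. Without them Zg16 was at 108, Spink4 at 90.1 and Muc2 at 12.2 CPM in tuft cells. In the 137 enteroendocrine barcodes Zg16 was at 133 CPM. The part of mixed barcodes in these levels was not tested beyond these values.

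Progenitors held little of the set. In early progenitors all 8 genes were over 1.5-fold lower than in goblet cells, as were 18.5% of the 3329 genes counted (33.4% were higher). The summed level was 695 CPM against 130756, a factor of 188 (184 to 193). Tff3 came nearest with a factor of 101, then Spink4 with 156 and Fcgbp with 177, and Clca1 lay farthest with 552 (410 to 763). At 1500 UMIs, early progenitors had Muc2 in 1.20% of barcodes (0.660 to 2.01%) and stem cells in 1.53% (0.703 to 2.89%). Agr2 was in 16.4 and 18.2% and Tff3 in 16.5 and 18.6%, so these shares did not set early progenitors apart from stem cells. Their Tff3 CPM was nonetheless above that of stem cells, 277 against 132, and the 2 measures give no common order.

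A few barcodes held a good part of the progenitor signal. Among 1162 early progenitors, 12 had 10000 CPM or more of the 8 genes and held 28.7% of the class's mucus UMIs. They averaged 7268 CPM of Tff3 and 1543 CPM of Fcgbp, and Scrublet marked 2 of them. Without the 12 the class had 190 CPM of Tff3, 98.1 of Agr2, 5.20 of Muc2 and 13.2 of Fcgbp, so Tff3 was still above the stem cell level of 132 CPM. In late-1 progenitors 6 barcodes held 49.0% of the mucus UMIs, in late-2 progenitors 7 held 68.9%, and in enterocytes 1 barcode, marked as a doublet, held 66.5%. No stem cell barcode reached the limit. In stem cells Zg16 (24.7%), Tff3 (24.5%), Agr2 (24.0%) and Spink4 (22.9%) supplied near-equal parts of the 1932 mucus UMIs, with at most 48 in a barcode. How much of this low level was free RNA in the droplets was not tested.

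Within the goblet class the genes did not vary as 1 block. Over 985 goblet barcodes thinned to 1500 UMIs, Pearson's r between log2 counts was highest for Zg16 with Clca1 (0.66), followed by Zg16 with Tff3 (0.58) and with Muc2 (0.57). Fcgbp had r of 0.54 with Zg16 and 0.53 with Tff3, but 0.43 with Clca1 and 0.34 with Muc2. The last was about that of Agr2 with Clca1 (0.35) and with Zg16 (0.34). Agr2 was more loosely tied, at 0.42 with Tff3 and 0.29 with Muc2. Spink4 stood between: r was 0.42 with Tff3 and 0.37 with Muc2, but 0.00 with Agr2 and -0.03 with Clca1. Spdef, with a UMI in 31.1% of these thinned barcodes, had r between -0.03 and 0.10 with all 7, and counts this sparse say little. The points share 1 library and each list of UMIs competes for the same 1500, and r is given as a description.

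Other gene lists set these patterns in context. Agr2 went with the endoplasmic reticulum folding genes (r = 0.53 with the sum of the other 22 genes of that list), while Muc2 had r = 0.02 with it. The granule and exocytosis list, which includes Sytl2 and Rab27b, had its highest r with Clca1 and Tff3 (0.37 each) and Zg16 (0.36). The sum of Paneth markers had r of 0.55 with Spink4 and -0.37 with Agr2 and -0.31 with Clca1. Cell cycle genes ran against 7 of the 8, from -0.37 for Tff3 to -0.22 for Clca1. Barcode depth before thinning had r of 0.13 with Zg16 and -0.16 with Spink4, Tff3 and Muc2.

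**Figure D4:**
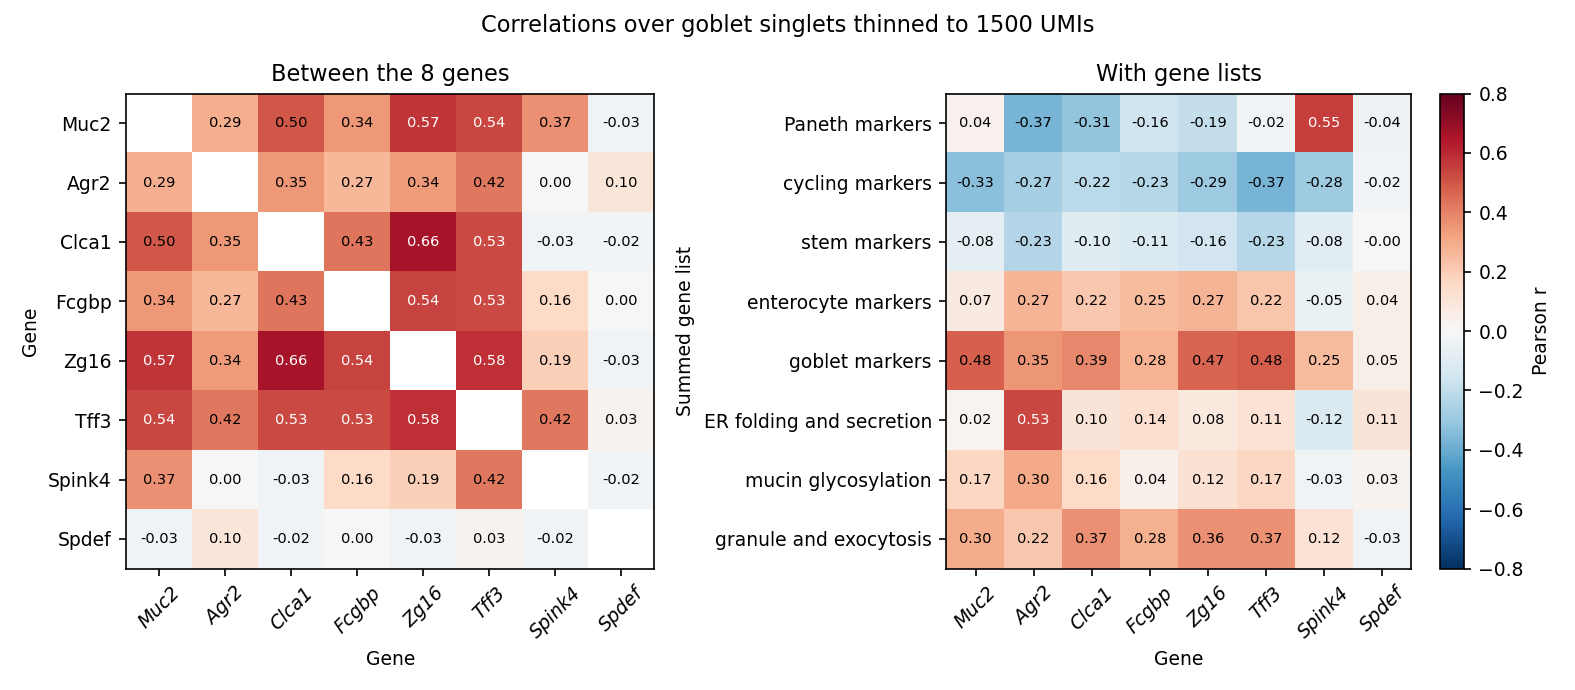
Pearson's r over the 985 goblet singlets thinned to 1500 UMIs, between the 8 genes (left, both axes genes) and between each gene (horizontal axis) and the sum of a gene list (vertical axis, right). Zg16, Clca1, Tff3 and Muc2 have r of 0.50 to 0.66 with each other, and Fcgbp 0.34 to 0.54 with them. Spink4 is the only gene with a clearly positive value for Paneth markers (0.55), and Agr2 the only one above 0.5 for the folding list (0.53).

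The ranges of Zg16 level showed the same order for several genes. At 5000 UMIs, 147 of 933 goblet barcodes (15.8%) had no Zg16 UMI, 389 had 1 to 99 and 397 (42.6%) had 100 or more, with 177 barcodes between 50 and 200. Across these 3 ranges the median of Clca1 was 0, 3 and 17 UMIs, that of Muc2 8, 12 and 26, that of Fcgbp 12, 17 and 34 and that of Tff3 95, 117 and 182. Agr2 differed less (113, 152 and 180 UMIs), and Spdef, with a median of 1 UMI in each, was detected in 73.5, 71.7 and 60.2% of barcodes. Spink4 had medians of 49, 63 and 92 UMIs but means of 105, 88.8 and 103 UMIs, which show no such order. Cell cycle genes were detected in 70.1% of barcodes without Zg16 and in 27.7% of those with 100 or more. Enterocyte markers had medians of 5, 8 and 12 UMIs. Paneth markers had medians of 7, 5 and 4 UMIs but means of 96.1, 39.7 and 18.3 UMIs, far above the medians. The ranges were cut from a member of the set itself, so they describe order among goblet cells and not types.

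The wider secretory machinery was also highest in goblet cells. Of the endoplasmic reticulum folding list, 23 of 23 genes, Agr2 among them, had their highest level there, against 8.41% of all genes counted. They include Hspa5 (1981 CPM), a chaperone, and Pdia3 (1449 CPM) and Txndc5 (1411 CPM), disulfide isomerases. Of 13 mucin glycosylation genes with 50 CPM in a class, 13 were highest in goblet cells, among them Galnt12 (385 CPM), Galnt7 (380 CPM) and C1galt1c1 (379 CPM), the chaperone of the core O-glycan enzyme. Of the lineage regulators 7 of 9 were, with Klf4 (346 CPM), Atoh1 (330 CPM) and Foxa3 (295 CPM) ahead of Spdef. Of other goblet genes 17 of 17 were, led after Spink4 by Guca2a (1262 CPM), the guanylin hormone, and Klk1 (1227 CPM), a protease. Only 4 of 8 granule and exocytosis genes were. Scin (445 CPM) and Rab3d (151 CPM) were, while Rab27b (205 CPM in goblet cells) and Vamp8 (188 CPM) were highest in tuft cells. Of 11 mucus layer proteins 5 were, and all 5 are among the 8 genes. Itln1, a lectin, had 60383 CPM in Paneth and 2503 CPM in goblet cells, and Muc13, a membrane mucin, 868 CPM in enterocytes and 545 in goblet cells. Several of these lists had been drawn up with goblet cells in mind, so their counts are not independent evidence.

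A further 10 genes followed the mean pattern of the 8 most closely over the 10 classes. The measure was Pearson's r between log2(CPM + 10) of a gene and the mean standardized profile of the 8, over 10 classes of 1 library. Smim5 led with 0.98, then came Ern2 (0.98), an endoplasmic reticulum stress sensor of goblet cells, Rep15 (0.98), Sytl2 (0.98), a granule docking protein, Tmed3 (0.97) and Gcnt3 (0.97), a mucin glycosyltransferase. Hgfac (0.97), Atoh1 (0.97), C1galt1c1 (0.96) and Creb3l1 (0.96) completed the 10. Against the mean of the other 7, Agr2 was the most typical of the 8 genes (r = 0.99) and Spink4 the least (0.83), after Clca1 and Zg16 (0.89 each).

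In multiplets, where a barcode can hold several cells, the summed level of the 8 genes was 29490 CPM against 26694 in all singlets, a ratio of 1.10 (1.10 to 1.11). None of the 8 passed 1.5-fold in either direction; of the 11674 genes with 50 UMIs or more in a library, 1.42% were over 1.5-fold higher and 3.87% lower, 5.29% in all. The nearest was Zg16, with 7970 CPM in singlets and 11391 in multiplets, a ratio of 1.43 (1.42 to 1.44). It passed 1.5-fold, at 1.54, when TMM scaling was used, and at 1.71 when every barcode had the same weight. Clca1 went from 487 to 628 CPM (1.29) and Muc2 from 778 to 995 CPM (1.28). Fcgbp had 1119 and 1166 CPM (1.04) and Spink4 4291 and 4372 CPM (1.02). Agr2 had 6301 and 5905 CPM (0.937), Tff3 5696 and 4991 CPM (0.876) and Spdef 50.5 and 41.4 CPM (0.820, 0.773 to 0.870). Over all counted genes the median log2 ratio was -0.10, and TMM scaling brought it to 0.00, under which Agr2 was at 1.01. The Paneth markers summed to 27488 CPM in singlets and 57636 CPM in multiplets, the goblet markers to 679 and 690 CPM. In such sums, a different number of goblet cells and a different amount of mucus RNA per goblet cell cannot be told apart.

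Grouping multiplets by the cells they seemed to contain used other genes. Each barcode was fitted as a mixture of the 10 singlet class profiles on 400 marker genes that excluded the 8 genes and the secretory lists, and a class was called at 0.15 of the barcode's UMIs. The same was done for singlets with profiles from other singlets (held-out singlets), as the background. Goblet was called in 99.4% of goblet singlets but also in 29.1% of enteroendocrine ones, 1.14% of Paneth ones and at most 3.57% of any other class. Goblet alone was called in 302 multiplets (8.23%) and 688 singlets, goblet with classes other than Paneth in 790 multiplets (21.5%) and 361 singlets, and neither goblet nor Paneth in 2307 multiplets and 4126 singlets.

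In both goblet groups without Paneth, Zg16 had the highest ratio of the 8 genes. In barcodes called goblet alone it was at 84177 CPM in multiplets and 54191 CPM in singlets (ratio 1.55, 1.54 to 1.56), and with other classes at 27277 and 14718 CPM (1.85, 1.84 to 1.87). Clca1 had ratios of 1.36 and 1.34 and Muc2 of 1.21 and 1.27 in these 2 groups. Agr2 (0.886 and 0.722), Tff3 (0.971 and 0.729), Spink4 (0.935 and 0.840) and Spdef (0.779 and 0.527) were below 1 in both, and Fcgbp had 1.09 and 0.892. Zg16 was also higher in multiplets within a range of the fitted goblet share. This share was too small in simulated mixtures of real singlets, so equal fitted shares need not be equal true shares. Goblet was called in 979 of the 985 goblet singlets, so the 361 singlets include goblet cells that the fit divided between classes. Their median Zg16 was 3 UMIs, against 188.5 in goblet-alone singlets, at median depths of 9447 and 8546 UMIs. Ratios with other classes, or within a range of fitted share, therefore need not compare like mixtures. Where the fitted goblet share was 35 to 65%, Zg16 was at 32370 CPM in 353 multiplets and 15613 CPM in 142 singlets, while Agr2 was at 17686 and 21410 CPM and Tff3 at 13718 and 16768 CPM. At 65 to 85% Zg16 was at 43417 and 18981 CPM, and Agr2 at 19888 and 29394 CPM.

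**Figure D5:**
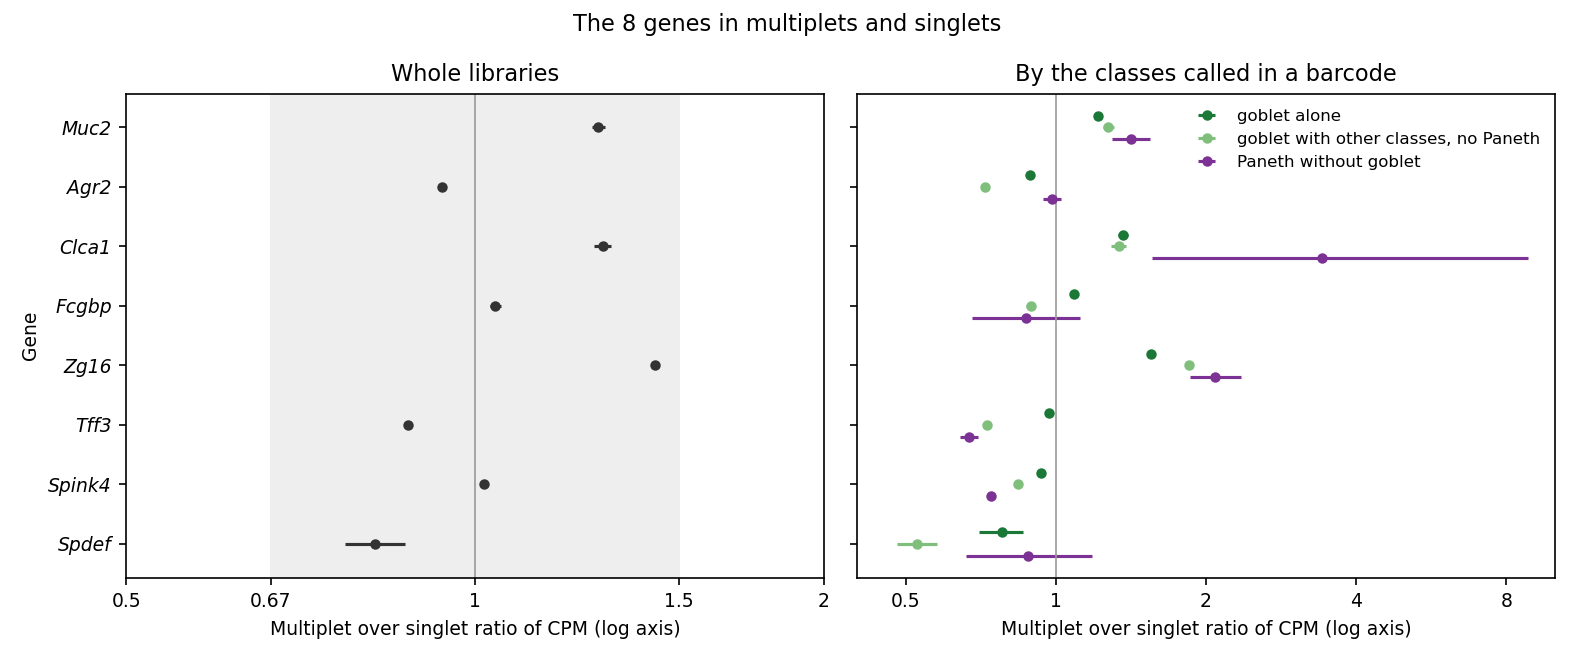
Multiplet over singlet ratio of CPM (horizontal axes, logarithmic) per gene (vertical axis), for the whole libraries (left, with the range within 1.5-fold shaded) and for barcodes grouped by the classes called (right). Lines are 95% counting intervals; Zg16 is the highest of the 8 on the left (1.43) and lies to the right of 1 in the 3 groups drawn, and Clca1 in Paneth barcodes has a wide interval because few UMIs were counted.

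Paneth barcodes in multiplets kept Spink4 as their leading mucus gene. In the 256 multiplets called Paneth without goblet, Spink4 was at 9161 CPM, against 12370 CPM in the 90 singlets so called (ratio 0.741, 0.730 to 0.751). Zg16 there was at 309 and 148 CPM (2.09, 1.86 to 2.35), and Clca1 at 10.2 and 2.98 CPM (3.41, 1.56 to 8.84). Barcodes so called can also hold other classes, and a goblet share below the limit. These shares were not matched between the libraries, so the Paneth ratios need not compare like mixtures either. Goblet and Paneth were called together in 16 multiplets (0.436%) and 14 singlets, and 13 of those 14 belonged to the authors' goblet class. The number called depends on the limit and on a fit that returned too small a goblet share in simulated mixtures. Zg16 was lower in these multiplets than in these singlets, 3097 against 11726 CPM (0.264, 0.242 to 0.289), again without matched class shares. In the 16 multiplets Spink4 ran from 6132 to 100640 CPM around a median of 46491, and 12 of them exceeded the goblet median of 14946 CPM. In the 14 singlets it ran from 401 to 141172 CPM around a median of 72386, and 13 exceeded the goblet median. The summed Spink4 level of both groups, 32398 and 67358 CPM, was above that of goblet and of Paneth singlets alike. Agr2 was below the goblet median in all 16 and all 14 of these barcodes, and the median of Clca1 was 0. Scrublet marked none of the 14 singlets as doublets.

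Joint detection of mucus and Paneth transcripts was counted over all barcodes, whatever their class call. At 1500 UMIs, 26.8% of multiplets (25.3 to 28.2%) had at least 2 UMIs of the 8 genes and at least 2 of the Paneth markers, against 14.4% of singlets (13.4 to 15.4%). The lists taken singly were found in 46.7 and 41.8% of multiplets and in 35.1 and 24.8% of singlets. The product of these 2 shares was 19.5% in multiplets and 8.70% in singlets, below the joint share in both. However, Spink4 is among the 8 genes and supplied 79.1% of their UMIs in Paneth singlets. A Paneth cell alone can thus meet both limits, without a goblet cell. Neither the gap to the product nor the difference between the libraries therefore shows goblet and Paneth cells in the same barcode, and this was not tested here. In goblet singlets the joint share was 48.2% and in Paneth singlets 100%, and in transit amplifying cells 2.10%. Enteroendocrine cells had 16.0% and stem cells 8.86%, and with 3 UMIs of each list the stem cell share was 1.87%.

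Barcodes called neither goblet nor Paneth still differed between the libraries. The 8 genes summed to 1908 CPM in these multiplets and 626 CPM in these singlets (ratio 3.05), with 72.9 and 7.54 CPM of Muc2 and 42.3 and 5.41 CPM of Clca1. The ratio was 9.67 for Muc2, 7.81 for Clca1, 5.41 for Fcgbp and 4.31 for Zg16. A goblet share just below the limit counts here: at a limit of 0.25 the multiplet value was 5565 CPM, so the level rests on the limit.

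The amount that the fitted class shares predict was also compared with the amount counted. Over all multiplets the UMIs of the 8 genes were 1.29 times the prediction, and in held-out singlets 1.15 times. Zg16 was at 1.75 times in multiplets, Clca1 at 1.58 and Muc2 at 1.52, against 1.16, 1.16 and 1.15 in singlets. Fcgbp had 1.28 and 1.16, Agr2 1.13 and 1.15, Tff3 1.05 and 1.15, Spink4 1.02 and 1.13 and Spdef 0.972 and 1.16. On simulated mixtures of real singlets the fit returned too small a goblet share, so a ratio above 1 is not read as an excess of mucus transcripts, and the values serve only to order the genes.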

How the data were processed

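Libraries of 3′ UMI counts were made from intestinal singlets and multiplets with the Chromium 3′ v3 kit, per the labels' protocols. The submitters' processing notes name Cell Ranger 4.0.0 and mm10. The authors deposited whole-number counts per gene and barcode, without normalization, and a table of classes for singlets, of which the sources used here do not say how it was made. The lung files were not used here. Every barcode with counts entered: 5279 singlets (47764845 UMIs) of 6710 listed and 3671 multiplets (50645279 UMIs).

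UMIs were summed per class or library and scaled to CPM. Ratios between libraries used 14982 shared genes. Shares came from barcodes thinned at random to 1500 UMIs (none was shallower), or to 5000. Within goblet cells r was taken on log2(count + 1). Scrublet (scanpy 1.11.5) marked 83 singlets (1.57%) as doublets, which were kept. The mixture was fitted by expectation maximization with 300 iterations on 40 genes per class, with singlets as a held-out background. The ratio and mixture steps were tested on simulated data. Python 3.11.15, numpy 2.4.6 and scipy 1.17.1 were used. All 8 genes are named; of each list the counts and up to 4 genes with the highest goblet level are given, while Itln1, Muc13 and the Paneth and goblet marker examples were chosen after their values were seen. The genes most alike are the 10 with the highest r among genes of 50 CPM in 1 class. One gene of the glycosylation list is not reported here. The genes and lists were chosen with earlier results of these data known. Alternatives covered barcode weights, doublets, scaling, thinning depth, fold and weight limits and the marker genes.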

Additional observations from a re-analysis of the deposited data

How the results depend on the processing

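No paired analysis was possible because each group is 1 library. The count of 8 genes highest in goblet singlets was the same with equal barcode weights and without doublets. The Paneth to goblet ratio of the summed genes (0.121) was 0.117 without doublets, 0.341 unscaled and 0.254 with Paneth markers left out of the totals; for Spink4 the last 2 were 1.91 and 1.42, the reverse of 0.678. The early progenitor ratio (0.00532) was 0.00566 with equal weights, 0.00479 without doublets and 0.00467 unscaled. Thinning to 5000 UMIs or not at all gave Muc2 in 70.1 or 96.6% of Paneth barcodes (25% at 1500) and Zg16 in 84.2 or 87.9% of goblet barcodes (74.2%).

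The multiplet to singlet ratio of the sum (1.10) was 1.19 under TMM, 1.26 with equal weights, 1.11 without the 10 richest barcodes and 1.13 without doublets. TMM and equal weights each put 1 gene, Zg16, past 1.5-fold, and they turned Agr2 to 1.01 and 1.03; equal weights turned Tff3 to 1.01. Past 1.5-fold were 5.29% of all genes, 13.0% with a minimum of 1 UMI, and 1.61% past 2-fold. With 80 marker genes per class, observed over predicted was 1.23 for the sum, 0.999 for Tff3 and 0.976 for Spink4. At a limit of 0.25 the sum was at 157344 CPM in goblet-alone, 12720 in Paneth and 5565 in neither multiplets.

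Joint detection of mucus and Paneth genes was 20.0% in multiplets and 9.28% in singlets at 3 UMIs, and 52.8 and 39.4% at 5000 UMIs. The r of Tff3 and Agr2 was 0.48 at 5000 UMIs. At that depth Tff3 and Muc2 had 0.68, next to Zg16 and Clca1 with 0.69, and without doublets these were 0.71 and 0.70. Without barcodes of 10000 CPM or more, added after seeing the data, the sum was 2359 CPM in enteroendocrine, 684 in tuft and 502 in early progenitor cells. With 1 library per group, depth limits only counting error, and differences between animals or preparations were not measured.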
